A study of Homo sapiens with 15 samples.

Results

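The transcript change shared by 4 targeting siRNAs was measured in HEK293T, an established human cell line of embryonic kidney origin. The comparison took the mean of the LOC550643, Dcp2, DcpS and GAPDH siRNA group means (12 arrays, 3 per siRNA) and set it against the mean of the non-silencing siRNA group (3 arrays), so it used all 15 arrays of the series. The LOC550643 siRNA was a pool of 4 siRNAs against the gene that encodes NoBody, a small P-body protein. Dcp2 siRNA targeted the mRNA decapping enzyme, DcpS siRNA the enzyme that breaks down caps after decay, and GAPDH siRNA a glycolytic enzyme. The reference siRNA is labelled non-silencing. Its sequence is not given in the sources used here, so its pairing with human transcripts was not checked. All 5 groups were transfected with Dharmafect 1 and 48 hours later given 1 ug/mL of actinomycin D, which stayed on for 4 hours, so no group shows these cells without siRNA or without the drug. The labels do not tell whether the 3 arrays of a group stem from independent cultures, and the p-values therefore speak only to array-to-array spread, part or all of which may be technical.

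An siRNA is loaded into an Argonaute protein, which cuts transcripts that pair with it along its length and can also lower transcripts that pair only with its short seed. Transfected double-stranded RNA can in addition be sensed by innate immune receptors that switch on interferon genes. Actinomycin D blocks transcription, so transcripts measured after it reflect both the earlier level and decay, and short-lived transcripts are the most depleted. Because the series has a single reference siRNA, a response common to the 4 targeting siRNAs and a response particular to the non-silencing siRNA give the same difference and cannot be told apart.

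The deposited values were RMA probe set summaries, here called levels, on a scale taken to be log2. Arrays of the same group correlated at 0.983 to 0.991 over all probe sets, and arrays of targeting siRNAs correlated with non-silencing arrays at 0.982 to 0.991. The array of non-silencing replicate 1 stood at the low end of the main axis along which arrays differed within their groups, with a score of -20.2. The other arrays had scores from -16.7 (DcpS replicate 1) to 11.8 (GAPDH replicate 3), and non-silencing replicates 2 and 3 were at -0.81 and 4.09. As deviations from the group mean, non-silencing replicate 1 was at -14.6, close to DcpS replicate 1 at -13.96, and GAPDH replicate 3 was at 12.1. Calls lost without non-silencing replicate 1, and list medians that moved without it, are given beside the results. The defining kidney epithelium, fibroblast, endothelial and neural markers that were measured, 13 in all lists together, gave 0 called genes, and the 4 kidney epithelium markers had group mean levels of at most 5.89.

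Of 14884 genes, 130 differed between the 4 targeting siRNAs and the non-silencing siRNA (limma's moderated test, Benjamini-Hochberg adjusted p under 0.05), which is 0.873% of those tested. Of these, 90 genes (0.605%) were higher with the targeting siRNAs and 40 (0.269%) were lower. The changes were modest. Their median size was 0.44 log2 units, 46 genes changed by more than 0.5 and 3 by more than 1. The genes called had a median level of 7.45, against 5.47 for all genes tested. The count depended on single arrays. Without non-silencing replicate 1, 19 genes were called, and 17 of them were among the 130. Without non-silencing replicate 2, 27 were called, 25 of them among the 130, and without non-silencing replicate 3, 119 were called, 83 of them among the 130. Leaving out Dcp2 replicate 2 or Dcp2 replicate 3 left 84 genes called in each case, 59 of them higher in the fit without replicate 3. The 40 lower genes were the more sensitive, at 23, 24 and 25 without Dcp2 replicates 1, 2 and 3, 25 without LOC550643 replicate 3 and 26 without GAPDH replicate 1.

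**Figure D1:**
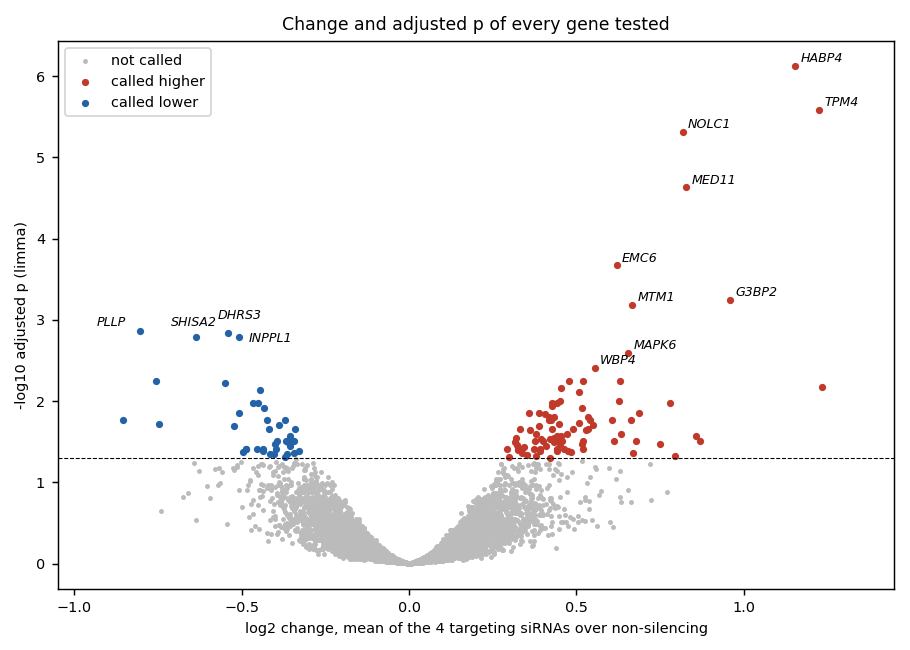
Change of each of 14884 genes (horizontal axis, log2 units, mean of the 4 targeting siRNAs over non-silencing) against the limma adjusted p (vertical axis, -log10 scale, dashed line at 0.05). Called genes are coloured by direction, 90 higher and 40 lower, and the 13 genes that stayed called whichever array was left out are named.

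**Figure D2:**
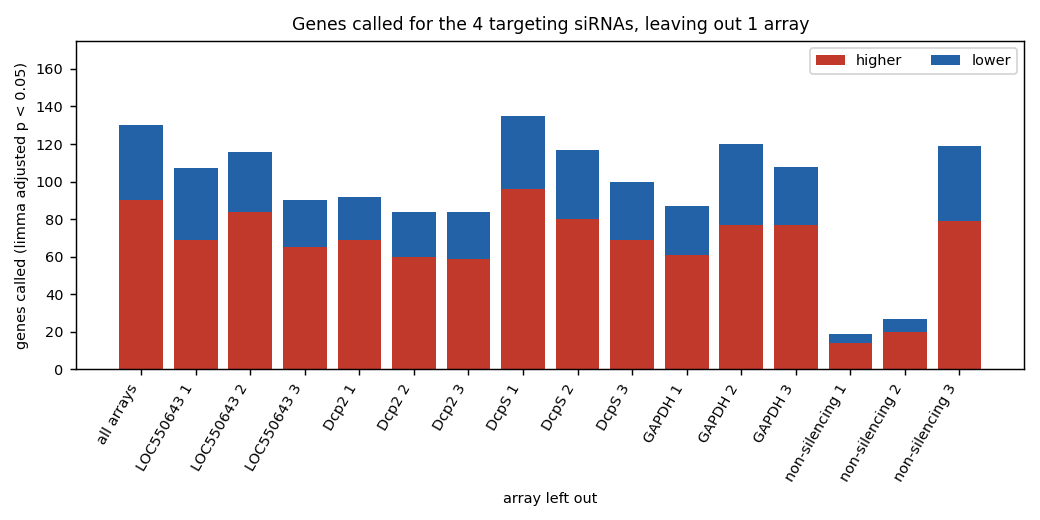
Number of genes called (vertical axis, limma adjusted p under 0.05) with all arrays and with each of the 15 arrays left out (horizontal axis), higher genes at the bottom of each bar and lower genes on top. The count was 130 with all arrays, 84 to 135 without a single targeting array, and 19, 27 and 119 without non-silencing replicates 1, 2 and 3.

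In 13 genes the call held whichever of the 15 arrays was left out, 9 of them higher and 4 lower with the targeting siRNAs. The higher genes encode proteins that act in RNA binding (HABP4, G3BP2), the actin cytoskeleton (TPM4), transcription (MED11), the nucleolus (NOLC1), splicing (WBP4), membrane protein insertion (EMC6), phosphoinositide metabolism (MTM1) and kinase signalling (MAPK6). The lower genes were PLLP, SHISA2, DHRS3 and INPPL1.

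HABP4, which encodes an RNA-binding protein related to SERBP1, had levels from 7.31 to 7.99 with a median of 7.74 in the 12 targeting arrays, against 6.52, 6.64 and 6.40 in non-silencing replicates 1, 2 and 3. The groups did not overlap. Its mean change was 1.15 log2 units (SE 0.07, limma adjusted p = 7.44e-07), a 2.22-fold higher level. The 3 DcpS arrays, at 7.31, 7.34 and 7.31, were lower than the other 9 targeting arrays, and the change was 0.80 with DcpS siRNA beside 1.25, 1.25 and 1.32 with LOC550643, Dcp2 and GAPDH siRNA.

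TPM4, a tropomyosin that coats actin filaments, lay between 8.55 and 9.01 with a median of 8.77 in the targeting arrays, against 7.35, 7.49 and 7.76 in the non-silencing arrays. Every targeting array was above every non-silencing array. The change was 1.22 (SE 0.09, limma adjusted p = 2.60e-06), which is 2.34-fold, and the 4 siRNAs gave values close to each other, at 1.16 and 1.32 with LOC550643 and Dcp2 siRNA and at 1.34 and 1.08 with DcpS and GAPDH siRNA. G3BP2, which nucleates stress granules together with its relative G3BP1, lay between 6.80 and 7.30 with a median of 7.11 in the targeting arrays, against 5.76, 6.39 and 6.30. Non-silencing replicate 1 was the lowest of these, and the change was 0.96 (SE 0.11, limma adjusted p = 0.000569) with all arrays and 0.76 at the least when an array was left out.

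MED11 belongs to the head module of Mediator, the complex that links transcription factors to RNA polymerase II. Its levels were 7.27 to 7.76 with a median of 7.63 in the targeting arrays, against 6.82, 6.72 and 6.82 in the non-silencing arrays, without overlap. The change was 0.83 (SE 0.07, limma adjusted p = 2.34e-05). NOLC1, a nucleolar chaperone of small nucleolar ribonucleoproteins, lay between 8.23 and 8.99 with a median of 8.89 in the targeting arrays, against 7.92, 7.85 and 8.04. All targeting arrays were higher, yet the GAPDH siRNA arrays, at 8.32, 8.23 and 8.34, stood nearer to the non-silencing arrays than the other 9 did. Its mean change was 0.82 (SE 0.06, limma adjusted p = 4.81e-06), made up of 0.90, 0.99, 1.02 and 0.36 with LOC550643, Dcp2, DcpS and GAPDH siRNA. EMC6, a subunit of the endoplasmic reticulum complex that inserts membrane proteins, lay between 7.49 and 7.98 with a median of 7.73, against 7.05, 7.16 and 7.17, a change of 0.62 (SE 0.07, limma adjusted p = 0.000214).

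MTM1, a phosphatase of endosomal phosphoinositides, had 6.38 to 7.25 with a median of 6.54 in the targeting arrays, against 5.99, 6.03 and 6.04. The DcpS arrays were the highest, at 7.25, 7.05 and 7.20. The mean change of 0.67 (SE 0.08, limma adjusted p = 0.000652) combined 1.15 with DcpS siRNA and 0.41 to 0.60 with the other 3 siRNAs. MAPK6, an atypical MAP kinase, lay between 5.74 and 6.25 with a median of 6.06, against 5.23, 5.32 and 5.61, a change of 0.65 (SE 0.09, limma adjusted p = 0.00253). The spliceosomal protein gene WBP4 lay between 5.54 and 5.96 with a median of 5.76, against 5.00, 5.38 and 5.28, a change of 0.55 (SE 0.08, limma adjusted p = 0.00387). For both genes the highest adjusted p with an array left out was close to the threshold, at 0.0419 and 0.0453.

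Among the genes that were lower, PLLP, which encodes a membrane protein of myelin and epithelia, had levels of 5.77 to 6.70 with a median of 6.39 in the targeting arrays, against 7.31, 7.14 and 6.86 in the non-silencing arrays. The groups did not overlap, and the change was -0.80 (SE 0.10, limma adjusted p = 0.00137), which left 57.3% of the non-silencing level. LOC550643 and GAPDH siRNA gave the lowest levels, with means of 5.97 and 6.08 beside 6.61 with Dcp2 and 6.53 with DcpS siRNA. DHRS3, a retinaldehyde reductase, lay between 6.10 and 6.58 with a median of 6.39, against 6.92, 6.98 and 6.86, a change of -0.54 (SE 0.07, limma adjusted p = 0.00146). INPPL1, the phosphoinositide phosphatase SHIP2, lay between 7.41 and 8.05 with a median of 7.72, against 8.29, 8.22 and 8.20, a change of -0.51 (SE 0.07, limma adjusted p = 0.00162).

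SHISA2 belongs to a family that in Xenopus holds back Wnt and FGF receptors. It lay between 6.35 and 7.75 with a median of 7.54 in the targeting arrays, against 7.75, 8.02 and 8.04 in the non-silencing arrays. GAPDH replicate 1 lay just below non-silencing replicate 1, and the DcpS arrays lay far below all others. Its mean change of -0.64 (SE 0.08, limma adjusted p = 0.00162) came mostly from DcpS siRNA, with a change of -1.47 beside -0.36, -0.46 and -0.26 with LOC550643, Dcp2 and GAPDH siRNA. The mean of the other 3 siRNAs, leaving out DcpS, had a limma adjusted p of 0.0685, so SHISA2 was not called without DcpS siRNA.

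**Figure D3:**
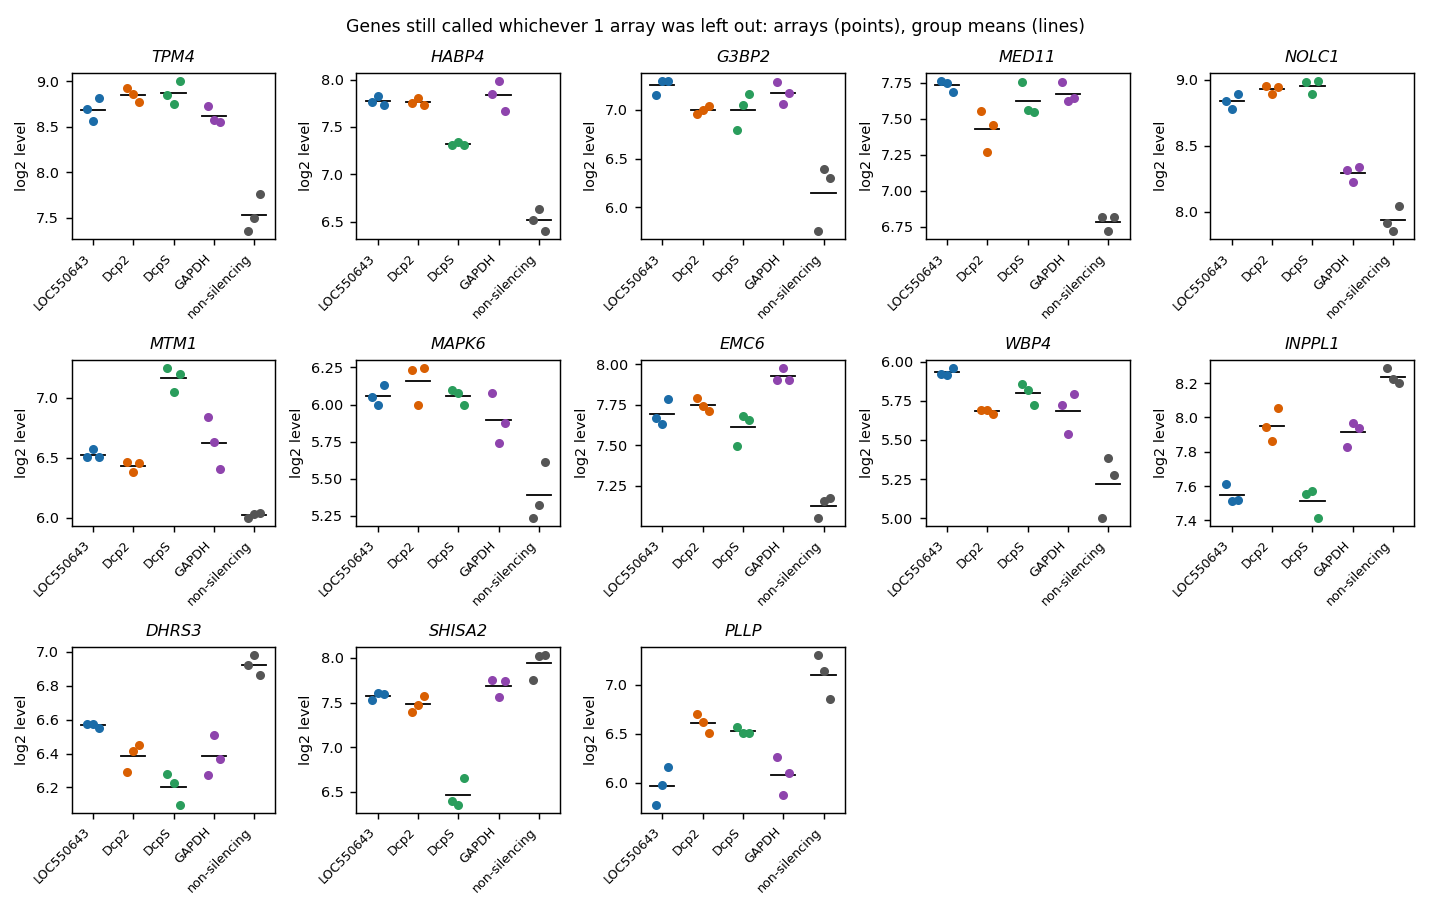
Levels (vertical axes, log2 units) of the 13 genes that stayed called whichever array was left out, with a point per array and a line at each group mean (3 arrays per group), the 4 targeting siRNAs left of non-silencing. In each panel the 12 targeting arrays lie on the same side of the 3 non-silencing arrays, and the DcpS arrays of SHISA2, MTM1 and HABP4 and the GAPDH arrays of NOLC1 stand apart from the other targeting arrays.

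A stricter view lets arrays of the same siRNA be correlated, so that part of the spread between siRNAs enters the error. It uses the same correlation for all genes and still counts arrays. The reference side has a single siRNA and gives no spread between siRNAs, so these p-values do not speak at the level of siRNAs. With siRNA as a random block, which estimated a correlation of 0.194 between arrays of the same siRNA, 5 genes were called, and all 5 were higher with the targeting siRNAs. They were TPM4 (limma adjusted p = 8.25e-05), HABP4 (0.000833), MED11 (0.00180), G3BP2 (0.0106) and EMC6 (0.0225). When the 12 targeting arrays were taken as 1 group, 26 genes were called, 24 higher and 2 lower.

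Upstream sequences are shown for HABP4, MED11 and EMC6, the genes called with siRNA as a random block that have a single start in the promoter table. They give the 250 bases before the annotated start, from RefSeq on GRCh38.p14, at chr9:96449919-96450168, chr17:4731178-4731427 and chr17:3668562-3668811, all on the plus strand. Capitals mark matches on either strand to the GC box GGGCGG, the CCAAT box CCAAT, the cyclic AMP response element TGACGTCA, the AP-1 site TGACTCA or the TATA box TATAAA, where neighbouring matches may overlap.
HABP4: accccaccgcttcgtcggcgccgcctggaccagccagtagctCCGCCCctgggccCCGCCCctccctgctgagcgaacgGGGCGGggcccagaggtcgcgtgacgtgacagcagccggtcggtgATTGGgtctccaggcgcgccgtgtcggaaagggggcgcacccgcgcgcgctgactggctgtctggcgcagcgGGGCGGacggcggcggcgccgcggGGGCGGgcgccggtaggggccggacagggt
MED11: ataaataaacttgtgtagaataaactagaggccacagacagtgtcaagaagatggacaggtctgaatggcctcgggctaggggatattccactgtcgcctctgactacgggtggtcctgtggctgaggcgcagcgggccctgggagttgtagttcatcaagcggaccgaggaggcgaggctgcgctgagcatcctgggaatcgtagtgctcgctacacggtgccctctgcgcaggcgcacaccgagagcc
EMC6: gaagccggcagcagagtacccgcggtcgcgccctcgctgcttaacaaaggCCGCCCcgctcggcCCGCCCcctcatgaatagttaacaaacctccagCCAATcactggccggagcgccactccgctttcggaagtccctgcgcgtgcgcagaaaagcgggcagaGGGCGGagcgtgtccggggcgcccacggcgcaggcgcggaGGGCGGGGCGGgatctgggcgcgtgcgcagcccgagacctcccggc

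HABP4 and EMC6 each held 5 GC boxes and 1 CCAAT box in this window, and MED11 held 0 matches to any of these motifs. A GC box stood in 75.7% of 103 promoters of 75 genes called higher and in 74.5% of 47 promoters of 36 genes called lower. It stood in 67.0% of promoters of genes tested with a level above the median, in 55.5% of those of all genes tested and in 42.6% of 35116 promoters in the table. A CCAAT box stood in 40.8% of the promoters of higher genes and 23.4% of those of lower genes. It stood in 33.5% of those of genes tested above the median level and in 32.0% of all. Against promoters of genes tested above the median level, the AP-1 site stood in 0.971% of the 103 promoters of higher genes beside 2.50%, the cyclic AMP response element in 2.91% beside 2.59% and the TATA box in 7.77% beside 5.28%. In the higher genes these shares rest on only 1, 3 and 8 promoters. Against all promoters in the table, which held these motifs in 4.20%, 1.65% and 10.7%, the AP-1 site and the TATA box were less frequent in higher genes and the cyclic AMP response element was not. Each of these 3 motifs stood in 1 of the 47 promoters of lower genes, or 2.13%. The genes called were brighter than most, so these shares are a description and were not tested.

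Leading genes were chosen among those whose arrays did not overlap. All 12 targeting arrays lay above the 3 non-silencing arrays in 60 of the 90 higher genes, and in 0.746% of all genes tested. ZNF267, a KRAB zinc finger gene, had the largest change of all, at 1.23 (SE 0.19, limma adjusted p = 0.00661), with 5.50 to 6.81 and a median of 6.28 in the targeting arrays against 4.47, 5.13 and 5.22 in the non-silencing arrays. Its call was lost when non-silencing replicate 1 was dropped (limma adjusted p = 0.0806). The opioid growth factor receptor gene OGFR changed by 0.78 and the dynein adaptor gene BICD2 by 0.66, and neither was called without the same array (limma adjusted p = 0.0765 and 0.0908). Their levels in that array, 6.26 and 6.64, were below the 6.90 and 7.01 of OGFR and the 7.36 and 7.35 of BICD2 in the other 2 non-silencing arrays. KLHDC10, a substrate receptor of a cullin ubiquitin ligase, changed by 0.69 and was called neither without non-silencing replicate 1 nor without replicate 2 (highest limma adjusted p = 0.132). ZNF766, at 0.75, lost its call without any of 10 of the 15 arrays, the 3 Dcp2 arrays, non-silencing replicates 1 and 2, LOC550643 replicate 3, DcpS replicates 2 and 3 and GAPDH replicates 1 and 3 (highest limma adjusted p = 0.226).

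All 12 targeting arrays lay below the 3 non-silencing arrays in 21 of the 40 lower genes, and in 0.443% of all genes tested. TMEM145 changed by -0.75, with 5.79 to 6.60 and a median of 6.43 in the targeting arrays against 7.37, 7.05 and 6.82 in the non-silencing arrays. SYT17, a synaptotagmin relative, changed by -0.55 and COMMD7, a subunit of the Commander complex of endosomal sorting, by -0.47. All 3 lost the call when non-silencing replicate 1 was dropped (limma adjusted p = 0.0669, 0.0600 and 0.104). The formin gene DIAPH1, which drives actin polymerization, changed by -0.44 (limma adjusted p = 0.00734), and was at 7.52, 7.51 and 7.52 in the non-silencing arrays. Its 4 changes ran from -0.88 with LOC550643 to -0.09 with Dcp2 siRNA, and it was not called without non-silencing replicate 1 or 2 (highest limma adjusted p = 0.0607). PAG1, an adaptor that holds the kinase Csk at the membrane, changed by -0.43, between -0.36 and -0.49 with each siRNA, and was not called without any of the 3 non-silencing arrays in turn (highest limma adjusted p = 0.107). DQX1 (-0.49), PLAC8 (-0.49) and the pseudokinase gene CAMKV (-0.45) were the least secure, since they lost the call in 12, 10 and 12 of the 15 fits that left out an array, non-silencing replicates 1 and 2 among them in each case (highest limma adjusted p = 0.293).

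**Figure D4:**
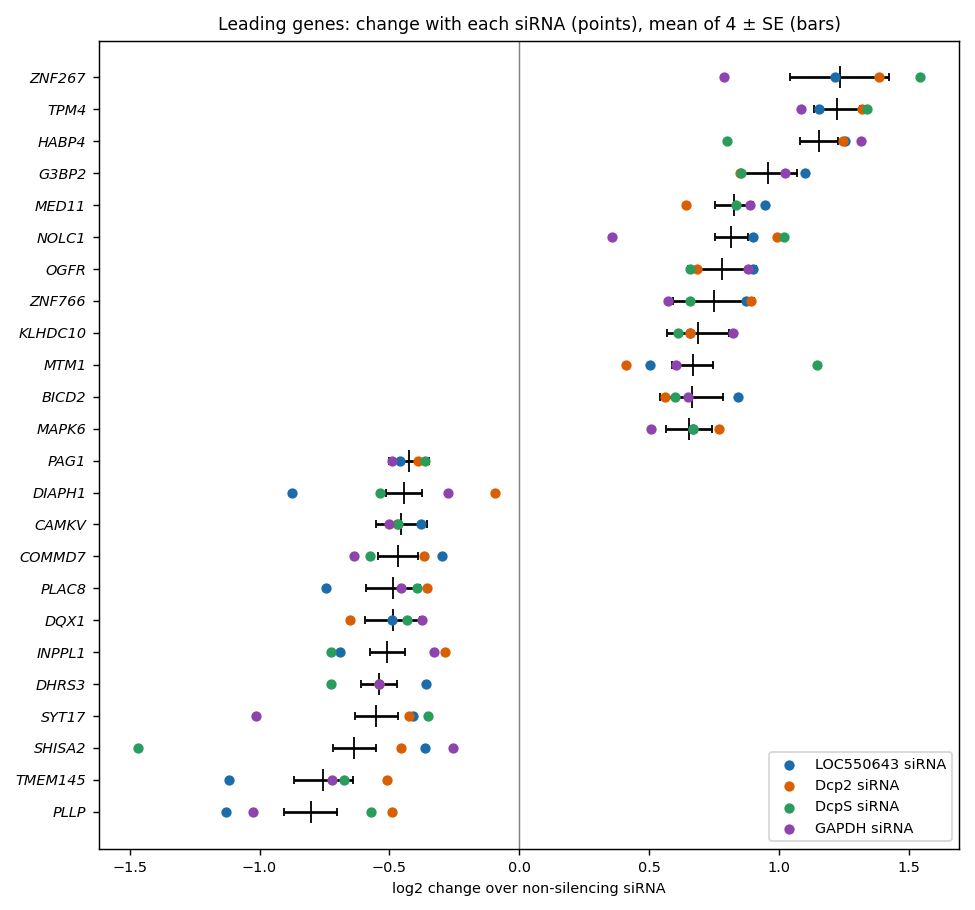
Change over non-silencing (horizontal axis, log2 units) of the 12 leading genes in each direction with each of the 4 siRNAs (coloured points) and the mean of the 4 with its SE (black). All points of a gene lie on the same side of 0, and SHISA2, SYT17, MTM1 and NOLC1 each have an siRNA far from the other 3.

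The 4 single comparisons share the 3 non-silencing arrays, so agreement between them is given as a count only. Of the 90 genes that were higher, 86 had a positive change with each of the 4 siRNAs, and of the 40 that were lower, 36 had a negative change with each. These genes were called on the mean of the same 4 changes, so agreement in sign is in part built in. The share over all genes is not given here. Taken singly, 15 of the 130 genes were called with all 4 siRNAs, 23 with 3, 66 with 2 and 26 with 1. The share of all genes called was 1.57% for LOC550643 siRNA, 1.98% for Dcp2, 3.61% for DcpS and 2% for GAPDH siRNA, and 0.101% were called with all 4 in the same direction. Higher genes made up 0.658%, 1.05%, 1.76% and 0.726% of all genes with LOC550643, Dcp2, DcpS and GAPDH siRNA, and lower genes 0.907%, 0.927%, 1.85% and 1.27%. All 15 were higher with the targeting siRNAs. They were TPM4, HABP4, G3BP2, MED11, NOLC1, EMC6, MTM1, MAPK6, WBP4, OGFR, KLHDC10, UBE3A, STX12, CDK9 and C6orf136. This count was 5 without non-silencing replicate 1, 6 without replicate 2 and 23 without replicate 3. It also fell with a single targeting array left out, to 6 without GAPDH replicate 1, 7 without any of the 3 Dcp2 arrays and 9 without LOC550643 replicate 1 or 2.

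The members of this set not yet described were CDK9, UBE3A, STX12 and C6orf136. CDK9, the kinase that releases paused RNA polymerase II, lay between 8.32 and 8.67 with a median of 8.57 in the targeting arrays, against 8.06, 8.10 and 8.16, and its changes were 0.49, 0.45, 0.48 and 0.38 with LOC550643, Dcp2, DcpS and GAPDH siRNA. The ubiquitin ligase gene UBE3A lay between 7.90 and 8.36 with a median of 8.16, against 7.23, 7.62 and 7.75, a mean change of 0.63 with 0.49 to 0.68 for the single siRNAs. The endosomal SNARE gene STX12 changed by 0.52, with 0.41 to 0.58 for the single siRNAs, and C6orf136 by 0.43, with 0.39 to 0.49. In the mean of the 4 siRNAs, CDK9 and C6orf136 were not called without non-silencing replicate 1 or 2, UBE3A without replicate 1 and STX12 without replicate 2 (highest limma adjusted p of these = 0.103).

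A test that does not use the non-silencing mean asked whether the 4 targeting siRNAs differed among themselves. Of all genes, 1783 (12%) differed among them in a moderated F test (limma adjusted p under 0.05). Of the 130 genes, 46 (35.4%) did and 84 did not pass. TPM4 (limma F adjusted p = 0.282), G3BP2 (0.453), MED11 (0.122), EMC6 (0.0707), MAPK6 (0.397) and WBP4 (0.240) were among those that did not pass, while HABP4 (0.00418), NOLC1 (0.000176), MTM1 (0.000622) and PLLP (0.00525) did. In 51 of the 130 genes the gap between non-silencing and the nearest targeting siRNA mean was wider than the whole range of the 4 targeting means, and 4.58% of all genes tested had that pattern. Without non-silencing replicate 1, 19 of the 19 genes called had the same sign with each siRNA and 8 differed among the siRNAs. That agreement in sign is again in part built in, since the genes were called on the mean of the 4 changes.

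Of the 130 genes, 57 (44 of them higher) stayed called whichever of the 4 siRNAs was left out, and each of the others lost the call without at least 1 siRNA. Among leading and list genes, ZNF766, DQX1, CAMKV, CALR, GEM, RHOB, JUN and JUND were not called without Dcp2 siRNA. Nor were SHISA2 without DcpS siRNA, PLAC8 without LOC550643 siRNA and TXNIP without GAPDH siRNA. CD68 was not called without Dcp2 or GAPDH siRNA, and BCL2 was not without Dcp2 or DcpS siRNA. The genes that differed most among the siRNAs were uneven in their 4 changes. LIX1L was at -1.10 with LOC550643 and -0.62 with DcpS siRNA but at 0.22 with Dcp2 and 0.08 with GAPDH siRNA, so that its mean of -0.35 described none of them. DNPH1, a nucleotide hydrolase gene, was at -1.29 with GAPDH siRNA and between -0.28 and 0.00 with the others. FUBP3, a single-stranded nucleic acid binding protein gene, was at -0.81 with LOC550643 and 0.04 with DcpS siRNA, and the kinase gene HIPK3 was at -0.99 with DcpS and 0.15 with LOC550643 siRNA. Among the higher genes, the Polycomb chromobox gene CBX6 was at 0.86 with GAPDH, 0.69 with Dcp2, 0.17 with LOC550643 and -0.01 with DcpS siRNA. ERLIN1, an endoplasmic reticulum lipid raft protein gene, was at 0.72 with DcpS and -0.20 with Dcp2 siRNA. The ephrin gene EFNA3 and the lysosome-related organelle gene BLOC1S6 were at 0.98 and 0.84 with DcpS siRNA, beside 0.00 to 0.45 and 0.07 to 0.42 with the other 3. All 8 of these genes were not called without non-silencing replicate 1 or 2, DNPH1, LIX1L and BLOC1S6 also not without replicate 3, LIX1L not without Dcp2 replicate 2 or 3, and DNPH1 not without 9 of the 12 targeting arrays (limma adjusted p up to 0.298). With the mean of its probe sets CBX6 was not called (limma adjusted p = 0.168).

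The genes targeted by the siRNAs show what the mean over siRNAs does to a change that is largest with a single siRNA. GAPDH averaged 5.97 ± 0.24 with its own siRNA, 7.20 ± 0.13 with LOC550643, 7.23 ± 0.04 with Dcp2 and 7.13 ± 0.11 with DcpS siRNA, and 7.20 ± 0.10 with non-silencing siRNA (SD, n = 3 each). Its mean change over the 4 siRNAs was -0.31, with a limma adjusted p of 0.131. DCP2 averaged 6.34 ± 0.10 with its own siRNA, 8.54 ± 0.13 with LOC550643, 7.60 ± 0.27 with DcpS and 8.40 ± 0.12 with GAPDH siRNA, and 8.14 ± 0.13 with non-silencing siRNA (SD, n = 3 each). Its mean change was -0.42 (limma adjusted p = 0.0638), and 0.04 without Dcp2 siRNA. DCP2 was also called lower with DcpS siRNA, at -0.54 (limma adjusted p = 0.0252), and was at 0.40 and 0.26 with LOC550643 and GAPDH siRNA, neither called. The genes LOC550643 and DCPS are not analysed here, since no probe set carried their names in the platform table used.

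Gene lists were described by how many measured members were called, beside the 0.605% higher and 0.269% lower over all genes and a median change of -0.0019. For the response to double-stranded RNA, 29 sensors and interferon-induced genes were measured and 0 were called, with a median change of -0.04 and changes between -0.38 (IFITM2) and 0.13 (IFI44). IFIT1 and ISG15, which interferon induces strongly, were at 0.0066 and -0.0024. Every group, non-silencing included, received siRNA, so a response common to all groups would not show in this difference. The 29 genes were also dim, with a mean level of 4.96 in the targeting groups beside 5.52 for all genes tested. The 7 measured genes of the RNA interference machinery, the 14 of decapping and P-bodies, the 17 of the exosome and deadenylation and the 5 factors of nonsense-mediated decay each had 0 called genes, with median changes of 0.05, 0.01, -0.06 and 0.06. These medians were -0.03, -0.09, -0.01 and 0.02 without non-silencing replicate 1.

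Of 13 measured stress granule and SERBP1-related genes, 2 rose, HABP4 and G3BP2, while the median change of the list was -0.02 and the other 11 lay at 0.21 or below. In the list of actin, tropomyosin and serum response genes, TPM4 rose and DIAPH1 fell among 20 measured, with a median of 0.02. Of 30 Mediator subunits, MED11 rose and MED24, a tail subunit, was called lower at -0.37 (limma adjusted p = 0.0172), with 21 positive changes and a median of 0.10, which was 0.02 without non-silencing replicate 1. MED24 was not called without non-silencing replicate 1 or 2 (highest limma adjusted p = 0.107). Of 17 nucleolar and ribosome biogenesis genes, NOLC1 rose and the median was 0.08.

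Immediate early and other short-lived transcripts were the list with the most calls, 4 higher and 0 lower of 31 measured, with 24 positive changes and a median of 0.18. GEM, a small GTPase gene, changed by 0.87, the GTPase gene RHOB by 0.86, and the AP-1 subunit genes JUN and JUND by 0.79 and 0.63. JUN was at 9.74 to 11.19 with a median of 10.40 in the targeting arrays, against 9.25, 9.77 and 10.08 in non-silencing replicates 1, 2 and 3, so the groups overlapped. RHOB lay between 8.97 and 10.18 with a median of 9.70, against 8.33, 8.91 and 9.08. In each of these 4 genes non-silencing replicate 1 was the lowest of the 15 arrays, and Dcp2 siRNA gave the largest change, at 1.47 for GEM, 1.33 for RHOB, 1.42 for JUN and 0.92 for JUND. In the mean of the other 3 siRNAs, leaving out Dcp2, none of the 4 was called (limma adjusted p = 0.110 for GEM, 0.0782 for RHOB, 0.169 for JUN and 0.0661 for JUND). Without non-silencing replicate 1, 0 of the 31 were called and the list's median was 0.10; 0 were called without replicate 2 and 4 without replicate 3. GEM was in addition not called without Dcp2 replicate 3 or GAPDH replicate 1, and JUN lost its call in 12 of the 15 fits that left out an array (highest limma adjusted p = 0.341). With the axis score as a covariate the changes of GEM, RHOB, JUN and JUND were smaller, at 0.71, 0.66, 0.58 and 0.51. All 4 stayed called in that fit (limma adjusted p = 0.0219, 0.000531, 0.00128 and 0.00892). The score averaged -5.64 in the non-silencing and 1.41 in the targeting arrays, so this adjustment can take out part of the contrast itself. Other members had positive changes that did not pass, among them ATF3 (0.77, limma adjusted p = 0.133) and KLF6 (0.65, limma adjusted p = 0.124), and FOS and MYC were at -0.06 and -0.12.

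In metabolism, HK2, which phosphorylates glucose at the start of glycolysis, was called lower at -0.45 (SE 0.08, limma adjusted p = 0.0106). It lay between 6.37 and 6.97 with a median of 6.50 in the targeting arrays, against 6.96, 7.02 and 6.96, where DcpS replicate 3 was the 1 targeting array that overlapped. Each of the 9 glycolysis genes measured, GAPDH included, was below 0, and their median change was -0.18. The list was not lower with each siRNA, since its median was 0.02 with Dcp2 siRNA beside -0.10, -0.24 and -0.09 with LOC550643, DcpS and GAPDH siRNA, and without non-silencing replicate 3 the median over the 4 was -0.09. HK2 was not called without non-silencing replicate 1 or 2 (highest limma adjusted p = 0.0876). TXNIP, a thioredoxin-binding alpha-arrestin that lowers glucose uptake, was called higher at 0.68, with 10.00 to 10.90 and a median of 10.58 against 9.39, 10.00 and 10.19. Its call was lost without non-silencing replicate 1 or 2, any Dcp2 array or GAPDH replicate 1 (highest limma adjusted p = 0.226) and with the mean of its probe sets (limma adjusted p = 0.0695).

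In the endoplasmic reticulum list, CALR, a calcium-binding chaperone, was called higher at 0.38 and 0 of the other 11 members were, with a median of 0.00. CALR was not called without non-silencing replicate 1 or 2, any Dcp2 array, LOC550643 replicate 3 or GAPDH replicate 1 (highest limma adjusted p = 0.250), nor after quantile normalization of the genes (limma adjusted p = 0.215). BCL2, an inhibitor of apoptosis, was called lower at -0.40 on changes of -0.84 with Dcp2 and -0.66 with DcpS siRNA beside -0.06 and -0.05 with LOC550643 and GAPDH siRNA, and it lost the call in 13 of the 15 fits, those without non-silencing replicates 1, 2 and 3 included (highest limma adjusted p = 0.240). CD68, the only called marker of blood cells among 3 measured, was at 0.39, carried by 1.10 with GAPDH siRNA and at -0.20 with DcpS siRNA. It was not called without any of the non-silencing arrays or in 8 of the fits without a targeting array (highest limma adjusted p = 0.143), and the blood markers CD14 and LYZ were at -0.03 and 0.19. The mitotic list had 0 called genes of 27 measured, although 24 were above 0, and its median change was 0.17. That median was 0.06 without non-silencing replicate 1, and it ran from 0.36 with DcpS siRNA to -0.07 with GAPDH siRNA. Lists of p53 targets, the integrated stress response, heat shock, cholesterol synthesis, DNA replication, the MAPK-interacting kinases and tRNA synthetases had 0 called genes of 12, 12, 10, 16, 23, 10 and 17 measured, with medians of 0.09, 0.07, 0.10, -0.07, 0.01, 0.08 and -0.05. Without non-silencing replicate 1 these were 0.11, 0.15, 0.08, -0.17, -0.02, 0.07 and 0.03, and without replicate 3 the cholesterol median was 0.03 and the tRNA synthetase median -0.14.

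**Figure D5:**
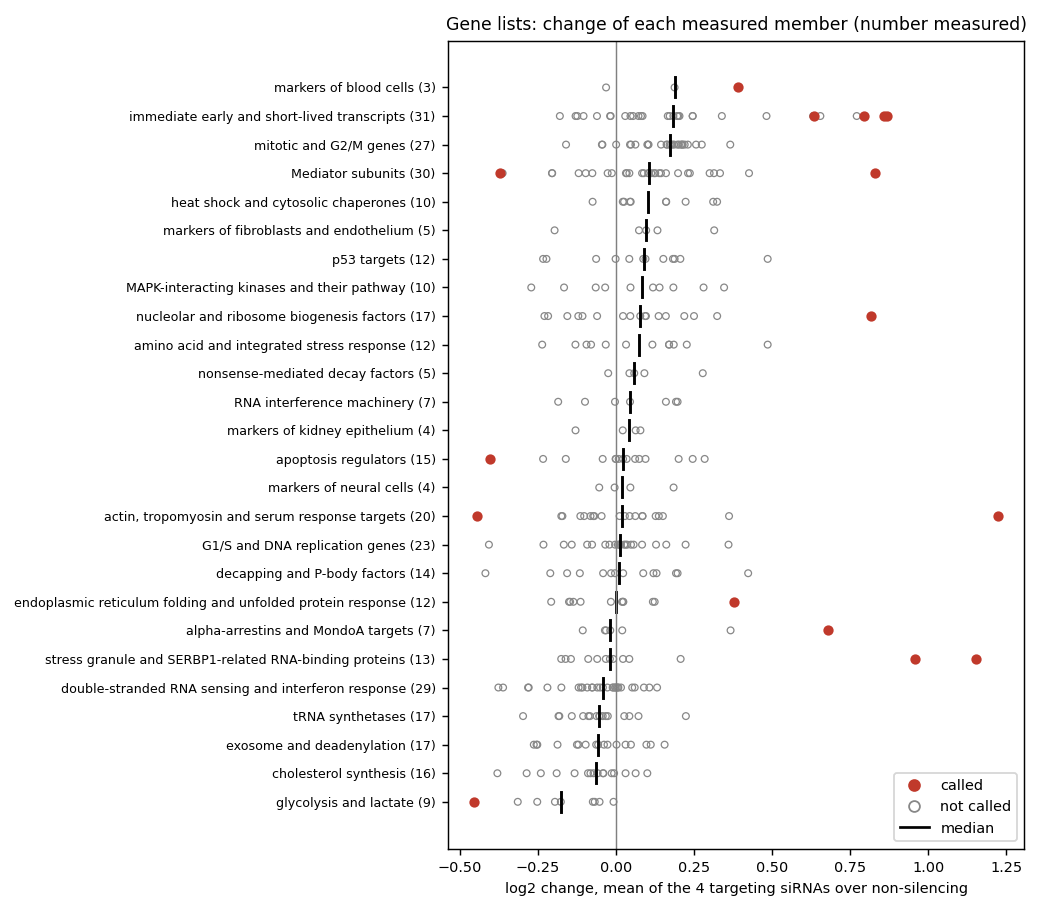
Change of each measured member of 26 gene lists (horizontal axis, log2 units, mean of the 4 targeting siRNAs over non-silencing), with called members filled, the others open and the list median as a black line. HABP4, G3BP2, TPM4, MED11 and NOLC1 lie above the other members of their lists, and the list medians lie between -0.18 for glycolysis and 0.19 for the 3 blood markers.

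Zinc finger genes, a group noticed after the values were seen, had 8 called higher and 0 called lower of 509 genes named ZNF or ZFP, or 1.57% beside the 0.605% called higher over all genes, with a median change of 0.06. They were ZNF267, ZNF766, ZNF622, ZNF160, ZNF385A, ZNF823, ZFP1 and ZFP90, at 1.23 to 0.38. Of the 8, only ZNF385A was still called without non-silencing replicate 1, and only ZNF267 without replicate 2.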

How the data were processed

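Total RNA was measured on 15 Affymetrix arrays, 3 for each of 5 siRNAs, with groups and replicate numbers taken from the labels. The deposited values are probe set summaries on a scale read as log2 from their range. The submitters' processing notes name RMA and oligo. RMA subtracts background, quantile-normalizes the arrays and summarizes probes, and the versions and the genome build are not given in the sources used here. After quantile normalization a global shift in transcript level would not be visible, and precision is limited by how many arrays there were. Of 53617 probe sets, 16098 had 1 gene symbol, 0 had several and 37519 had none here. For 779 genes with several probe sets the one with the highest mean over the 15 arrays was used, which left 14884 genes.

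Limma 3.58.1 in R 4.3.3 fitted 1 mean per group to all 15 arrays (10 residual degrees of freedom). The contrast was the mean of the 4 targeting group means minus non-silencing, with two-sided p-values adjusted by Benjamini-Hochberg over 14884 genes and a threshold of 0.05. Changes are differences of log2 means, with the model's SE. Where a sentence says an array was left out, the fit was repeated on 14 arrays. The fit was tested on simulated data. Identical values were found in 0 pairs of arrays. The members and the 26 gene lists were chosen with earlier results of these data known. Genes were named by rule: the targeted genes, the 12 largest changes per direction among called genes with no overlap of arrays (small RNAs and olfactory receptors left out), genes called with all 4 siRNAs, up to 4 called members per list, and 5 called genes per direction differing most among the siRNAs. The zinc finger genes, the list members named with values that did not pass and the promoter motifs were added after values were seen. Alternatives covered the replicate block, scaling, dim genes, probe sets, array weights, the empirical Bayes options, the error of the contrast, the weight of each siRNA and an axis score as a covariate. The axis is the first principal component of the residuals, which held 24.7% of their variance. The score is the position of each array along it, group differences included.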

Additional observations from a re-analysis of the deposited data

Results flagged for a closer look

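The change over non-silencing differed between the 4 siRNAs, by the moderated F test over the targeting groups, for 24 of the named genes. For the targeted genes the adjusted p of that limma test was 1.29e-05 for GAPDH and 4.45e-07 for DCP2. Among genes with the largest mean changes it was 0.00418 for HABP4, 0.000176 for NOLC1, 0.000622 for MTM1, 0.00525 for PLLP, 0.0411 for TMEM145, 1.29e-05 for SHISA2, 0.00150 for SYT17, 0.00240 for INPPL1 and 0.000189 for DIAPH1. Among list members it was 0.000312 for BCL2, 0.0367 for GEM, 0.0195 for JUN, 0.0491 for JUND and 1.67e-05 for CD68. For the genes singled out because they differed most it was 4.27e-05 for CBX6, 4.52e-05 for ERLIN1, 7.00e-05 for EFNA3, 0.000170 for BLOC1S6, 1.37e-06 for LIX1L, 2.43e-05 for DNPH1, 8.76e-05 for HIPK3 and 0.000159 for FUBP3, and there it restates how they were chosen.

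Outside the named genes, 15 of 37519 probe sets without a gene name here (0.0400%) were called for the 4 targeting siRNAs against non-silencing, when adjusted as a set of their own. Groups of 3 arrays were too small, and the 12 targeting arrays too many, for the search for single outlying arrays.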

How the results depend on the processing

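The counts of genes called (130, of which 90 higher and 40 lower) moved most with the error used and with non-silencing replicates 1 and 2. Leaving out 1 array at a time gave 19 to 135 genes called, 14 to 96 higher, 5 to 43 lower and 5 to 23 called with each of the 4 siRNAs (15 with all arrays). Testing only genes above the median level gave 287 called, 162 higher and 125 lower, with 31 called with each siRNA. Fewer and brighter genes were tested there, and the cause of the higher counts was not tested. With siRNA as a random block the counts were 5, 5 and 0, and with the 12 targeting arrays as 1 group 26, 24 and 2, where the spread between siRNAs enters the error. Leaving out LOC550643 siRNA gave 225 called and 108 lower, and leaving out GAPDH siRNA gave 67 lower; the cause was not tested. The change of DCP2 turned to 0.043 when Dcp2 siRNA was left out. The replicate block gave 139 genes called, 110 of them among the 130, and 17 called with each siRNA. Among the named genes it lost the calls of DQX1, PLAC8 and BCL2. Over all genes the replicate numbers paired the arrays little. Deviations of same-numbered arrays correlated at -0.20 to 0.39, with a median of 0.02 beside 0.0009 for arrays of different numbers. Of the 15 arrays, 6 correlated best with an array of their own number. Along the main within-group axis, replicate 1 was below its group mean and replicate 3 above it in every group but Dcp2. Whether the numbers stand for a batch was not tested. Settings not named here kept each count within 1.5 times. Over the settings other than leaving out an array, 582 named gene results kept direction and call, 106 lost the call, 9 gained it and 1 reversed.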
